A study of Mus musculus with 2 samples.

Results

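Myeloid cells of the fetal mouse intestine were described as 178 cell barcodes of 2492, from single-cell RNA sequencing of 1 Casp8 C362A/C362A Mlkl -/- embryo (Casp8-mutant) and 1 Mlkl -/- embryo (Mlkl-null) at E18.5, both on C57BL/6. Both embryos therefore lacked Mlkl, the pseudokinase that carries out necroptosis. The Casp8-mutant embryo also carried 2 copies of the C362A allele, which exchanges the catalytic cysteine of the protease caspase-8. A barcode counted as myeloid if it had at least 500 genes and drew at least 5 UMIs (unique molecular identifiers, 1 per captured mRNA molecule) and at least 0.2% of its UMIs from 10 genes together. These were Tyrobp, Fcer1g, Csf1r, C1qa, C1qb, C1qc, Ctss, Cd68, Aif1 and Laptm5, and S100a8 plus S100a9 had to stay under 1.5% of UMIs so that neutrophils were set aside. The rule kept 113 barcodes of the Casp8-mutant library and 65 of the Mlkl-null library. With 1 embryo a genotype there is no replicate check and no test of genotype. Intervals are given at 95% and account for counting error alone. The members were chosen by their own counts of these 12 genes, so those levels are a description. Genotype and embryo cannot be told apart, nor can sex, since Xist had 793 UMIs in the Casp8-mutant and 0 in the Mlkl-null myeloid barcodes, and Ddx3y had 1 and 12. The source is labelled small intestine, while the protocol names whole intestine, dissociated with papain.

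Macrophages of the fetal gut descend from yolk sac and fetal liver precursors and live on the growth factor Csf1. They engulf dying cells, process the lipid that this brings, and secrete complement C1q, apolipoprotein E and chemokines. Some of them load peptides onto MHC class II for T helper cells, using the invariant chain Cd74 and the peptide exchange factors H2-DM. All nucleated cells can carry MHC class I, and interferons raise both MHC class I genes and a set of antiviral genes.

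The promoters below are shown because the MHC class II genes were much lower, and the interferon-stimulated genes higher, in the Casp8-mutant myeloid barcodes. They run from 250 bases before to 50 bases after the RefSeq start on GRCm38.p6, 5′ to 3′ on the gene's strand. H2-Eb1 lies at chr17:34305617-34305916 (plus strand), H2-DMb1 at chr17:34152941-34153240 (plus) and H2-Aa at chr17:34287774-34288073 (minus). Isg15 lies at chr4:156200769-156201068 (minus) and Cxcl10 at chr5:92348840-92349139 (minus). In the 3 MHC class II promoters, capitals mark the core of the X box (CNAG, any 2 bases, AC, any 2 bases, ATG), the site that the RFX complex reads, and ATTGG or CCAAT, the letters read by NF-Y.
H2-Eb1: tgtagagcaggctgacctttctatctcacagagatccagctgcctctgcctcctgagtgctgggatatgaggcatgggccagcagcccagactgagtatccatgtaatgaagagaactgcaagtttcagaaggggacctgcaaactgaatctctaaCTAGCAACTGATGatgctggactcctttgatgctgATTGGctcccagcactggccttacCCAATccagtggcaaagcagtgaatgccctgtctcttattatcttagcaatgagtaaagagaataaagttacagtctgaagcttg
H2-DMb1: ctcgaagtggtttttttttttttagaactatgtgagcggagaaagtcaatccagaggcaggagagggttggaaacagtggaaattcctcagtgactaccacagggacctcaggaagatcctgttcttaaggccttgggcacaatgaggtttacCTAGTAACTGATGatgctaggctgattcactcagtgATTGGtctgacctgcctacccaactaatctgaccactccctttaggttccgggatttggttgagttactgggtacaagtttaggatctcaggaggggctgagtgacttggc
H2-Aa: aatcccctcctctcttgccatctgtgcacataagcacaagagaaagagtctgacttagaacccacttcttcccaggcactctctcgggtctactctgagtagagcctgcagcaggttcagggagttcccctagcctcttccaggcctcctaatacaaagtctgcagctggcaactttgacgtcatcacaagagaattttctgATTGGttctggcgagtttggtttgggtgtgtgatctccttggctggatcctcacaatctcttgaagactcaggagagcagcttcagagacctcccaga
In the next 2 promoters capitals mark GAAA, any 2 bases, GAAA, the core of the interferon-stimulated response element, whose matches overlap in Isg15.
Isg15: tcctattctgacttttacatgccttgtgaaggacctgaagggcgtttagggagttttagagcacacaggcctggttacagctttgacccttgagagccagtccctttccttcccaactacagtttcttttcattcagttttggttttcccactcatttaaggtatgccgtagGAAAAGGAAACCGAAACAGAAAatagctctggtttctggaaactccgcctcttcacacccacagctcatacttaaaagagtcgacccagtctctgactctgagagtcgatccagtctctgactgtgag
Cxcl10: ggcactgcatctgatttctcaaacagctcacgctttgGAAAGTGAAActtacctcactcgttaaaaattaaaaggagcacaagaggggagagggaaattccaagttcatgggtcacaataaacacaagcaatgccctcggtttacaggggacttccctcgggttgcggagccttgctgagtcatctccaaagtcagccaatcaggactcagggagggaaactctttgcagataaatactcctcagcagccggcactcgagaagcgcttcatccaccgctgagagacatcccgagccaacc
The X box core, searched on both strands, occurred in H2-Eb1 and H2-DMb1, 2 of the 5 measured MHC class II list genes with a promoter in the table, and in 0.716% of 32817 promoters of all genes. In H2-Aa it had no match, and the capitals there mark ATTGG alone. The search used a fixed pattern, so a promoter without a match is not shown to lack an X box. ATTGG or CCAAT occurred in 37.4% of all promoters. The GAAA pair, also searched on both strands, occurred in 10 of 16 interferon-stimulated list genes with a promoter, among them Isg15, Ifit1, Bst2 and Rsad2, and in 3.43% of all promoters. It also occurred in 4 of 12 MHC class I list genes, namely B2m, H2-T22, H2-T23 and Psme1. These matches describe letters in the windows searched and are not shown to be bound sites.

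The myeloid barcodes made up 12.9% (Clopper-Pearson interval 10.8 to 15.3) of the 875 Casp8-mutant barcodes with at least 500 genes and 4.52% (3.50 to 5.72) of the 1439 Mlkl-null ones. The share was thus 2.86 times as large in the Casp8-mutant library (2.09 to 3.94). A share cannot tell more myeloid cells from fewer cells of other kinds. The libraries held 2804929 UMIs (Casp8-mutant) and 6290008 UMIs (Mlkl-null), and the myeloid barcodes 207927 and 209701 of them. The median Casp8-mutant myeloid barcode had 1563 UMIs and 932 genes, and the median Mlkl-null one 2825 UMIs and 1437 genes. Whether this lay in the cells or in the sequencing was not tested. The largest Mlkl-null member had 17919 UMIs, against 6127 UMIs in the largest Casp8-mutant one. The 2 libraries had 2 barcode sequences in common, 0 of them in myeloid barcodes. The 10 membership genes gave a median of 1.20% of UMIs in Casp8-mutant members (range 0.216 to 2.79%) and 2.21% in Mlkl-null members (0.249 to 3.30%), against 0.0583% and 0.0244% in the other barcodes. Just inside the limit, 9 Casp8-mutant and 3 Mlkl-null members lay between 0.2 and 0.4%. Just outside it, 125 and 61 barcodes lay between 0.1 and 0.2%, and 30 and 4 passed the share but had under 5 such UMIs. The S100a8 and S100a9 limit set aside 9 Casp8-mutant barcodes and 1 Mlkl-null barcode.

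**Figure D1:**
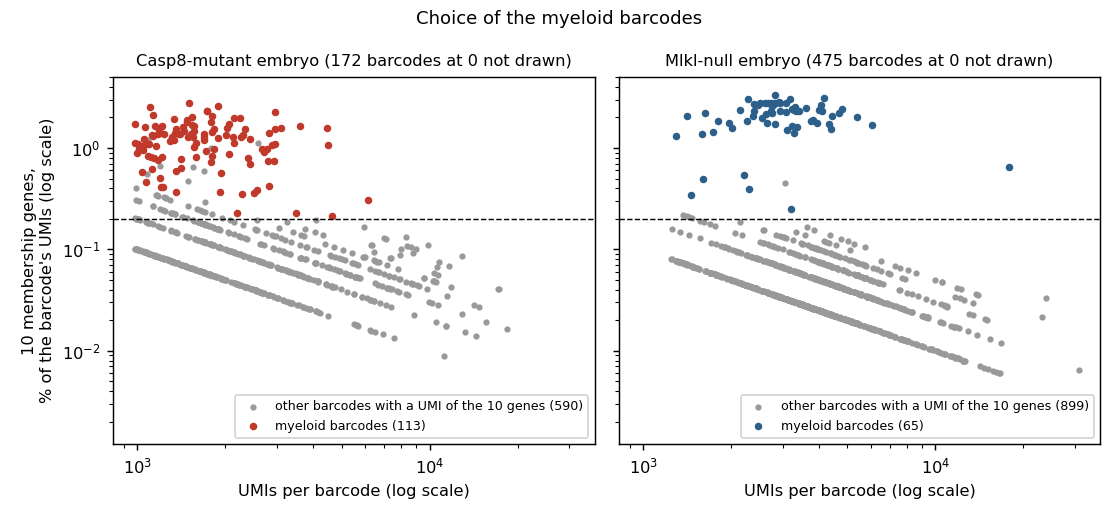
Share of UMIs from the 10 membership genes (percent, log scale) against UMIs per barcode (log scale), 1 point a barcode, Casp8-mutant embryo left and Mlkl-null embryo right, with the dashed line at 0.2%. The 113 Casp8-mutant and 65 Mlkl-null myeloid barcodes (coloured) lie above the line, with medians of 1.20% and 2.21%, and the Casp8-mutant ones sit at fewer UMIs.

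The plot of membership against depth shows that the coloured barcodes form a band set off from the grey ones in the Mlkl-null library, while more Casp8-mutant barcodes fall near the line. Macrophage genes were the most plainly present among the markers of the 3 labelled cell types. C1q genes, the opsonin of resident macrophages, reached 3 or more UMIs in 92 of 113 Casp8-mutant and 60 of 65 Mlkl-null members, which is partly the rule itself. Of the macrophage genes that the rule did not use, Cx3cr1 had 188 counts per 1000000 UMIs (CPM) in Casp8-mutant members and 8.34 CPM in the other barcodes, and 396 against 1.34 CPM in the Mlkl-null library. The Fc receptor Fcgr1 had 135 against 7.09 CPM in the Casp8-mutant library and 243 against 2.17 CPM in the Mlkl-null library. Xcr1, Clec9a, Cd209a, Flt3 and Zbtb46, which define classical dendritic cells, had 0 UMIs in both sets of members, which allows a level of up to 14.4 CPM per gene in the Casp8-mutant and 14.3 CPM in the Mlkl-null members at the floor of 3 UMIs. Other genes of the dendritic lists were present above the level of the other barcodes. The integrin Itgax had 52.9 CPM in Casp8-mutant members against 2.08 CPM in the other barcodes, and 28.6 against 0.167 CPM in the Mlkl-null library, and the transcription factor Batf3 62.5 against 4.59 CPM and 47.7 against 1.84 CPM. Of the monocyte genes, the chemokine receptor Ccr2 had 2 UMIs in each library and Ly6c2 had 15 in Casp8-mutant and 0 in Mlkl-null members. A UMI of Ly6c2 or Ccr2 was found in 10.0% (5.10 to 17.2) of 110 Casp8-mutant members thinned to 1000 UMIs a barcode. The thinned share was 4.14% (2.83 to 5.83) in the other Casp8-mutant barcodes, with overlapping intervals, and 0 of 65 in Mlkl-null members. At full depth the Casp8-mutant shares were nearly equal, at 13 of 113 members and 87 of 762 other barcodes. Mlkl-null members with such a UMI then numbered 2 of 65. Plac8, listed as a monocyte gene, had 1462 CPM in Casp8-mutant members and 1737 CPM in the other barcodes, so its level was no higher in the myeloid ones. Of 12 monocyte list genes 3 had enough UMIs to be measured. By the size rule given below, 2 were higher in Casp8-mutant than in Mlkl-null members and 0 were lower. Of all genes measured, 11.3% were called higher. The median log2 ratio of the 3 was 1.76 in the members and 1.48 in the other barcodes. Since the defining dendritic genes were at 0 and few monocyte genes were measured, no set of barcodes was named as dendritic cells or monocytes. The barcodes are called myeloid, or macrophage-like where C1q was detected.

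Markers of other cell types were present in the members. Epithelial list genes summed to 11730.1 CPM in Casp8-mutant members and 38869 CPM in the other barcodes, and to 7597 against 49388 CPM in the Mlkl-null library. Members thus held 30.2% of the surrounding epithelial level in the Casp8-mutant library and 15.4% in the Mlkl-null library. Neutrophil genes gave 3973 CPM in Casp8-mutant members and 4540 CPM in the other Casp8-mutant barcodes, but 42.9 and 62.5 CPM in the Mlkl-null library. After thinning, S100a8 or S100a9 was read in 109 of 110 Casp8-mutant members and in 95.3% of the other barcodes, against 1 of 65 and 2.55% in the Mlkl-null library. Erythroid genes gave 17607 CPM in Casp8-mutant members and 14975 CPM in the other Casp8-mutant barcodes, and 2980.4 against 9381 CPM in the Mlkl-null library. In Casp8-mutant and Mlkl-null members, fibroblast genes gave 48.1 and 196 CPM, and endothelial genes 43.3 and 95.4 CPM. A UMI of the B cell list was found in 14 Casp8-mutant and 22 Mlkl-null members and of the natural killer and innate lymphoid list in 18 and 12, but 3 or more UMIs in 1 and 2 and in 3 and 6. Gzma, a granzyme of cytotoxic lymphocytes, had 18 UMIs in 2 Casp8-mutant barcodes and 71 in 3 Mlkl-null barcodes, and T cell list genes had 0 and 21 UMIs. The part of this RNA in the differences given next was not tested beyond the alternatives stated with them.

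Levels were compared by summing UMIs over the members of each library. A gene was called higher or lower by size if it differed at least 2-fold and the interval of its ratio left out 1, among 3234 genes with at least 20 UMIs over both libraries. By that rule 364 genes (11.3%) were higher in Casp8-mutant members and 300 (9.28%) were lower. The median log2 ratio of all genes was 0.01, and folds are Casp8-mutant over Mlkl-null with 0.5 UMI added to each sum.

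MHC class II genes had the lowest median of the lists examined. Of 12 genes, 8 were measured and 7 were lower in Casp8-mutant members, 0 were higher, and the median log2 ratio was -3.12, against the background of 9.28% of genes called lower. The beta chain H2-Eb1 had 18 UMIs (86.6 CPM) in Casp8-mutant and 268 UMIs (1278 CPM) in Mlkl-null members, a level 14.4-fold lower (9.16 to 25.3). H2-Ab1, the other beta chain, had 36 UMIs (173 CPM) against 464 (2213 CPM), 12.6-fold lower (9.10 to 18.48). H2-Aa, the alpha chain that pairs with it, had 28 UMIs (135 CPM) against 304 (1450 CPM), 10.6-fold lower (7.30 to 16.5). Both chains of the same dimer were thus low together. Cd74, the invariant chain that escorts class II through the cell, had 239 UMIs (1149 CPM) in Casp8-mutant and 1771 UMIs (8445 CPM) in Mlkl-null members, 7.33-fold lower (6.42 to 8.45). The peptide exchange subunit H2-DMb1 had 4 UMIs against 46 and was 10.2-fold lower (4.16 to 43.6). Its partner H2-DMa had 37 against 102 and was 2.71-fold lower (1.86 to 4.10), and H2-DMb2 had 5 against 17. H2-DMb1 and H2-DMb2 are neighbouring genes of similar sequence, so the split of reads between them is uncertain. The costimulator Cd86 did not pass, with 12 UMIs in Casp8-mutant and 17 in Mlkl-null members. Summed, the list gave 1837 CPM in Casp8-mutant members and 14268 CPM in Mlkl-null members, while the other barcodes held 186 and 111 CPM.

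Fewer barcodes carried the transcripts in the Casp8-mutant library. After thinning to 1000 UMIs, 3 or more UMIs of H2-Aa, H2-Ab1, H2-Eb1 and Cd74 were present in 21 of 110 Casp8-mutant members (19.1%, 12.2 to 27.7) and in 43 of 65 Mlkl-null members (66.2%, 53.4 to 77.4). At full depth the shares were 29.2% and 72.3%. In the other barcodes they were 2.14% and 0.0728%, a share below that of the members in both embryos, although 16 other Casp8-mutant barcodes also passed this limit. Barcodes with 0 such UMIs numbered 65 in the Casp8-mutant and 19 in the Mlkl-null library, those with 1 to 5 numbered 33 and 4, and those with over 5 numbered 12 and 42. The Mlkl-null members thus split into a class II-negative and a class II-rich set with few between, whereas most Casp8-mutant members held few or none. Among C1q-positive barcodes with at least 0.3% of UMIs from class II genes, a limit chosen after the values were seen, Cd74 had 4529 CPM in 16 Casp8-mutant and 12962 CPM in 41 Mlkl-null barcodes, 2.85-fold lower (2.38 to 3.47). H2-Ab1 was 4.05-fold lower there (2.70 to 6.67). These barcodes were picked by the same class II counts and by C1q, so the ratios are a description and do not cover all carriers.

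**Figure D2:**
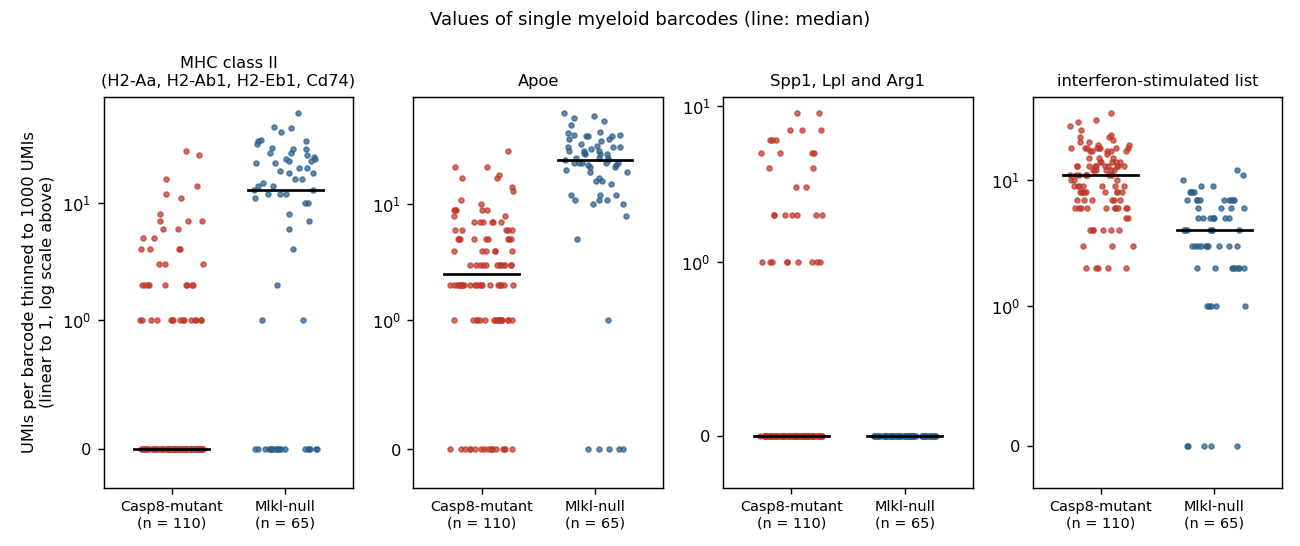
UMIs per myeloid barcode after thinning to 1000 UMIs (linear to 1, log scale above) for 4 gene sets, Casp8-mutant left and Mlkl-null right in each panel, with 1 point a barcode and the median as a line. MHC class II and Apoe are lower, and the interferon list is higher, in the 110 Casp8-mutant than in the 65 Mlkl-null barcodes. Spp1, Lpl and Arg1 have a median of 0 UMIs in both, with a UMI in 32 Casp8-mutant and 0 Mlkl-null barcodes.

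The plot of single barcodes shows the same 4 gene sets cell by cell, so that a sum carried by a few barcodes can be told from a shift of most. Apoe, the lipid carrier that macrophages secrete, shifted in most barcodes. It had 853 UMIs (4102 CPM) in Casp8-mutant and 4721 UMIs (22513 CPM) in Mlkl-null members, a level 5.49-fold lower (5.10 to 5.91), and was detected in 97 of 113 and 63 of 65. In thinned barcodes 3 or more Apoe UMIs were found in 50% of Casp8-mutant and 90.8% of Mlkl-null members, against 1.07% and 1.09% of the other barcodes. Apoe and the MHC class II genes were joined among the 12 most lowered genes by 2 extracellular proteases. Mmp9, a gelatinase, had 6 UMIs (28.9 CPM) in Casp8-mutant and 74 (353 CPM) in Mlkl-null members, 11.4-fold lower (5.36 to 34.4). Adamdec1, a metalloprotease of gut macrophages, had 16 (77.0 CPM) against 116 (553 CPM), 7.0-fold lower (4.24 to 12.99), and in the other barcodes 1.67 CPM against 26.1 CPM. It was detected in 35 Mlkl-null members, and 1 of these held 34.5% of its Mlkl-null UMIs. The insulin receptor substrate Irs2, the zinc finger gene Zfand5 and the transcription factor Mef2c were lower as well. Irs2 had 3 UMIs against 38, a ratio of 10.9-fold lower (3.98 to 63.6), and in the other barcodes 27.5 CPM against 81.4 CPM. Zfand5 had 7 UMIs against 55, 7.34-fold lower (3.54 to 20.3). Mef2c had 11 UMIs against 73, 6.34-fold lower (3.47 to 13.8). The remaining gene of the 12, Cd7, is a lymphocyte receptor with 0 UMIs in Casp8-mutant members and 40 in 4 Mlkl-null barcodes, at least 13.2-fold lower against the floor of 3 UMIs. Among C1q-positive barcodes Cd7 had 0 UMIs in both libraries.

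**Figure D3:**
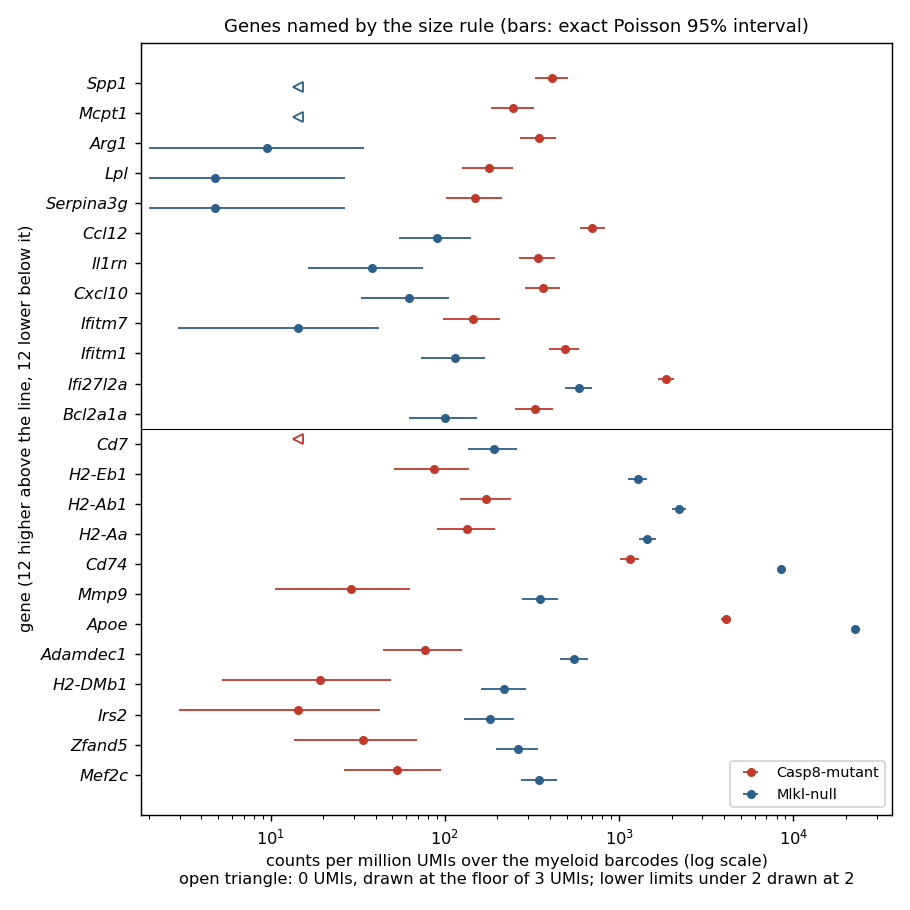
Level of the 12 genes most raised and the 12 most lowered by the interval bound nearest to 1, in CPM over the myeloid barcodes (log scale), Casp8-mutant above Mlkl-null for each gene, with exact Poisson 95% intervals and open triangles for 0 UMIs drawn at the floor of 3 UMIs. The intervals of the 2 libraries stand apart for genes such as Apoe, with 4102 CPM in Casp8-mutant and 22513 CPM in Mlkl-null members.

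The plot of named genes sets these beside the genes that were higher. Genes of long-resident fetal macrophages were mostly lower. Of 12 such genes 10 were measured, 7 were lower and 0 were higher, beside 9.28% of all measured genes called lower. The median log2 ratio was -1.48, and -0.88 for the same genes in the other barcodes. The chemokine Pf4 had 91 UMIs (438 CPM) in Casp8-mutant and 341 (1626 CPM) in Mlkl-null members, 3.70-fold lower (2.94 to 4.74). Lyve1, a hyaluronan receptor, had 3 UMIs against 24, a ratio of 6.94-fold lower (2.41 to 41.2), in 3 and 7 barcodes. The folate receptor Folr2 had 6 against 23 UMIs and was 3.58-fold lower, and the scavenger receptor Stab1 had 7 against 23. Gas6, which bridges dying cells to their receptors, had 5 UMIs against 28 and was 5.14-fold lower (2.12 to 18.4). The transcription factor Maf had 104 UMIs (500.2 CPM) in Casp8-mutant members against 232 (1106 CPM), 2.21-fold lower, and the selenium carrier Selenop had 58 against 147, 2.50-fold lower. Both were also lower in the other Casp8-mutant barcodes, where Maf had 305 CPM against 1106 CPM and Selenop 244 CPM against 789 CPM. Timd4, a receptor for phosphatidylserine, had 18 UMIs in Casp8-mutant and 34 in Mlkl-null members, F13a1 had 22 and 31, and Igf1 had 16 and 9, and none of these 3 passed.

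Transcription factors and receptors of macrophage identity were lower or did not pass. Of 18 measured myeloid transcription factors 7 were lower, 0 were higher, and the median log2 ratio was -0.58. Over all measured genes, 9.28% were called lower. Klf4 had 4 UMIs in Casp8-mutant and 22 in Mlkl-null members, 4.96-fold lower (1.85 to 21.8), and Runx1 had 11 against 36, 3.15-fold lower (1.62 to 7.07). Spi1, the master factor of myeloid cells, had 55 against 74 UMIs, and Cebpb 369 against 506, and neither passed. Csf1r, the receptor for Csf1 and 1 of the membership genes, had 303 CPM in Casp8-mutant and 1025 CPM in Mlkl-null members, given as a description. It was also lower in the other Casp8-mutant barcodes, at 38.4 CPM against 114 CPM in the Mlkl-null library, so its difference was not particular to the members. Of 14 measured chemokine and growth factor receptors 6 were lower, Csf1r among them, and 0 were higher. The number lower was 2 at a membership share of 0.5% and after thinning, and 3 in C1q-positive barcodes. The fractalkine receptor Cx3cr1 had 39 UMIs against 83, 2.10-fold lower (1.43 to 3.17), the chemokine receptor Cxcr4 13 against 30, and the TGF-beta receptor Tgfbr1 6 against 17. The complement receptors C5ar1, with 23 against 52 UMIs, and C3ar1, with 21 against 47, were lower too. Receptors for Csf2 and the interferons did not pass, with Csf2rb at 37 UMIs in Casp8-mutant and 39 in Mlkl-null members and Ifngr1 at 18 and 32.

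Spp1, Arg1 and Lpl were among the 12 most raised genes of those at least 1.5 times as high in the members as in the other barcodes. S100a8 and S100a9, with 344 and 330 UMIs in Casp8-mutant and 0 and 3 UMIs in Mlkl-null members, were left out of this ranking by name as membership limits. Spp1, or osteopontin, had 85 UMIs (409 CPM) in 18 Casp8-mutant barcodes and 0 UMIs in Mlkl-null members, at least 28.6-fold higher against the floor of 3 UMIs. Arginase 1 (Arg1), which consumes arginine, had 72 UMIs (346 CPM) in 24 barcodes against 2 UMIs (9.54 CPM) in 1 barcode, a ratio of 29.2 (9.69 to 306). Lipoprotein lipase (Lpl) had 37 UMIs (178 CPM) against 1, a ratio of 25.2 (6.29 to 1513). In the other barcodes Spp1 had 24.2 CPM in the Casp8-mutant and 20.9 CPM in the Mlkl-null library, but Arg1 had 16.3 CPM against 1.0 CPM, 15.2-fold higher (6.81 to 46.8), and Lpl 12.9 CPM against 4.68 CPM, 2.76-fold higher (1.602 to 4.78). After thinning, a UMI of any of the 3 was found in 32 of 110 Casp8-mutant members (29.1%, 20.8 to 38.5) and in 0 of 65 Mlkl-null members. At this depth, 0 of 65 allows a share of up to 4.62% at the floor of 3 barcodes, or 5.52% by the Clopper-Pearson interval. At full depth 42 of 113 Casp8-mutant and 2 of 65 Mlkl-null members had such a UMI. The shares in the other barcodes were 4.55% and 1.02%. The genes of dead cell uptake and lipid handling, to which Spp1 and Lpl belong, did not move as one. Of its 15 measured genes 4 were higher (Spp1, Lpl, Lgals3 and Cd9) and 5 were lower (Apoe, Gas6, Stab1, Trem2 and Plin2). Over all measured genes, 11.3% were higher and 9.28% lower. The list's median log2 ratio was -0.49, also with Spp1 at its bound. The galectin Lgals3 had 86 UMIs in Casp8-mutant against 20 in Mlkl-null members, 4.26-fold higher (2.64 to 7.45), but 476 CPM against 116 CPM in the other barcodes. The lipid receptor Trem2 had 12 UMIs against 30, 2.42-fold lower (1.23 to 5.32), and the lipid droplet coat Plin2 had 17 against 75, 4.28-fold lower (2.56 to 7.90). The engulfment receptors Mertk, with 12 and 13 UMIs, and Axl, with 22 and 31, did not pass.

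Chemokine and cytokine genes passed the size rule at shares near the 20.5% of all 3234 measured genes called in either direction. Of 11 measured chemokine ligands, Ccl12 was higher and Pf4 lower, and the median log2 ratio was -0.04. Ccl12, a ligand of Ccr2, had 146 UMIs (702 CPM) in 39 Casp8-mutant barcodes against 19 UMIs (90.6 CPM) in 11 Mlkl-null barcodes, 7.58-fold higher (4.79 to 13.2). In the other barcodes Ccl12 had 17.9 CPM against 1.0 CPM, 16.7-fold higher (7.57 to 51.4). Ccl24, a ligand of the eosinophil receptor, had the most UMIs of the 11 over both libraries, at 473 UMIs (2275 CPM) in Casp8-mutant and 331 (1578 CPM) in Mlkl-null members, and did not pass. Ccl4 had 150 UMIs against 156, and Ccl2 69 against 46. Of 16 cytokine and NF-kB target genes 2 were higher and 2 lower, with a median log2 ratio of 0.09 in the members and 3.37 in the other barcodes. Il1rn, which blocks the interleukin 1 receptor, had 71 UMIs (341 CPM) in Casp8-mutant against 8 (38.1 CPM) in Mlkl-null members, 8.48-fold higher (4.30 to 21.5), in 44 and 4 barcodes. Il1b, the cytokine that Il1rn opposes, had 201 UMIs (967 CPM) against 146 (696 CPM), a ratio of 1.39 (1.12 to 1.73) that did not pass. In the other barcodes Il1b had 188 CPM in the Casp8-mutant and 4.18 CPM in the Mlkl-null library, and Il1rn 88.4 CPM and 0.502 CPM. Ptgs2, which makes prostaglandins, was 3.50-fold higher (1.63 to 9.25), with 29 UMIs against 8. The inflammasome sensor Nlrp3 had 7 UMIs in Casp8-mutant and 37 in Mlkl-null members, 4.96-fold lower (2.31 to 13.9), and the NF-kB regulator Nfkbiz had 17 against 54, 3.09-fold lower (1.80 to 5.80). Cxcl2 had 172 against 160 UMIs and Nfkbia 87 against 137.

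Interferon-stimulated genes were higher in Casp8-mutant members, with smaller ratios than in the other barcodes of the same libraries. Of 38 genes 22 were measured, 14 were higher and 0 were lower, beside 11.3% of all measured genes called higher. The median log2 ratio was 1.52 in the members and 4.28 in the other barcodes. Isg15, a ubiquitin-like protein, had 221 UMIs (1063 CPM) in Casp8-mutant and 77 (367 CPM) in Mlkl-null members, 2.88-fold higher (2.22 to 3.80), and in the other barcodes 1618 CPM against 22.4 CPM. Ifi27l2a had 386 UMIs (1856 CPM) against 123 (587 CPM), 3.16-fold higher (2.58 to 3.91), and in the other barcodes 555 CPM against 11.7 CPM. Irf7, the factor that amplifies interferon production, had 145 UMIs against 39, 3.71-fold higher (2.62 to 5.49). The tetherin Bst2 had 241 UMIs (1159 CPM) against 97 (463 CPM), 2.50-fold higher (1.97 to 3.21), with 898 CPM and 41.8 CPM in the other barcodes. Mlkl-null members thus held Isg15 and Bst2 at levels that the other Mlkl-null barcodes did not reach. With free RNA subtracted, an alternative chosen after seeing the data, 10 of 22 genes were higher and the median log2 ratio was 0.94. Isg15 then stood at 1.58-fold and Bst2 at 1.94-fold, under the size rule, while Ifi27l2a stood at 2.88-fold and Irf7 at 2.96-fold. Ifit1, which binds viral RNA, had 43 UMIs against 2, a ratio of 17.5 (5.65 to 185), and Isg20 had 34 against 1, a ratio of 23.2 with a lower bound of 5.75. Ifitm3 had 592 UMIs (2847 CPM) in Casp8-mutant and 304 (1450 CPM) in Mlkl-null members and fell just short of the size rule, at 1.96-fold. Oas1a, with 13 and 16 UMIs, Trim30a, with 21 and 24, and Ifi204, with 29 and 26, did not pass. After thinning, 3 or more UMIs of the list were found in 95.5% of Casp8-mutant and 72.3% of Mlkl-null members, against 90.9% and 8.01% of the other barcodes.

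**Figure D4:**
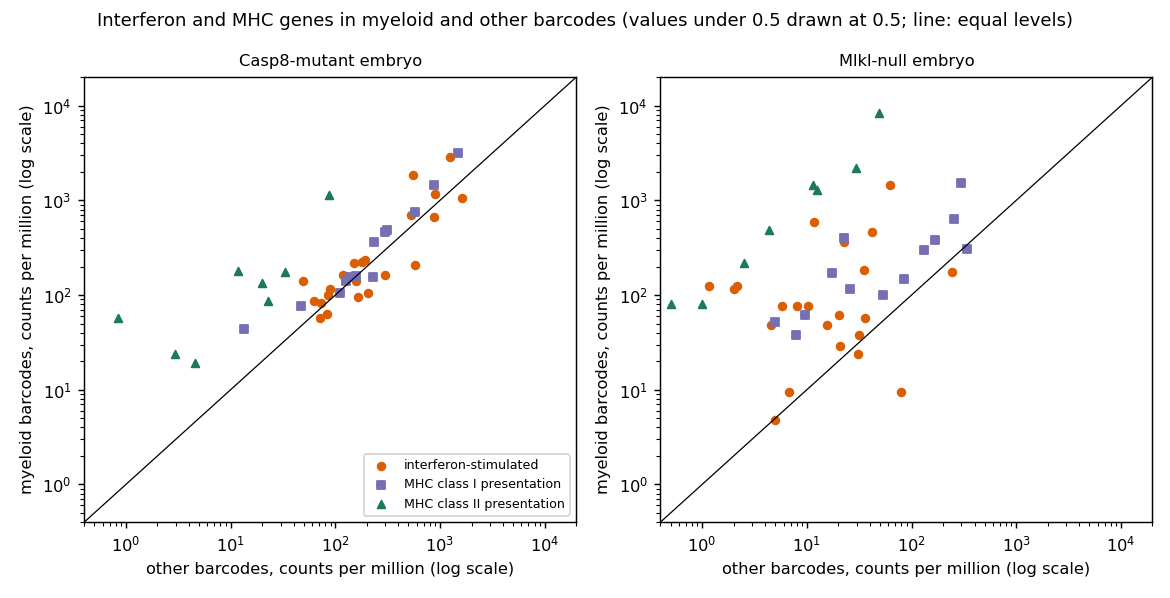
Level in myeloid barcodes against level in the other barcodes, both in CPM on log scales, for measured genes of the interferon-stimulated, MHC class I and MHC class II lists, with the Casp8-mutant embryo left and the Mlkl-null embryo right. Interferon-stimulated genes lie near the line of equal levels in the Casp8-mutant embryo (Isg15 1063 CPM in members, 1618 CPM in others) and mostly above it in the Mlkl-null embryo (367 and 22.4 CPM).

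The plot of members against other barcodes shows where each list was particular to myeloid barcodes: MHC class II lay above the line in both embryos. MHC class I genes were higher in part. Of 13 measured, 4 were higher and 0 lower, beside 11.3% of all measured genes called higher. The median log2 ratio was 0.35 in the members and 1.77 in the other barcodes. With free RNA subtracted, an alternative chosen after seeing the data, 1 of 13 stayed higher and the median was 0.05, with H2-K1 at 2.23-fold, H2-D1 at 1.96-fold, Tap1 at 1.90-fold and B2m at 1.85-fold. B2m, the light chain shared by class I molecules, had 663 UMIs (3189 CPM) in Casp8-mutant and 321 (1531 CPM) in Mlkl-null members, 2.08-fold higher (1.82 to 2.39). The heavy chains H2-D1, with 299 UMIs against 134, and H2-K1, with 156 against 65, were 2.25-fold and 2.41-fold higher, and share sequence with other class I genes. The peptide transporter Tap1 had 22 UMIs against 8. The immunoproteasome genes Psmb8, with 96 and 84 UMIs, and Psmb9, with 29 and 36, did not pass. Of 7 interferon gamma list genes Cxcl10 and Cxcl9 were higher and the GTPase Gbp7 was lower. Cxcl10, which attracts T cells, had 76 UMIs (366 CPM) in Casp8-mutant and 13 (62.0 CPM) in Mlkl-null members, 5.72-fold higher (3.25 to 11.6), with 135 CPM and 7.69 CPM in the other barcodes. Cxcl9 had 22 UMIs against 10 and Gbp7 had 11 against 29. Serpina3g, a protease inhibitor, had 31 UMIs against 1, a ratio of 21.2 (5.21 to 1274). In the other barcodes it had 7.09 CPM against 0.502 CPM, a ratio of 12.5 (4.09 to 75.2). The membrane proteins Ifitm7, with 30 UMIs against 3, and Ifitm1, with 101 against 24, were 8.79-fold (3.14 to 51.6) and 4.18-fold (2.70 to 6.93) higher in all members. With at least 1000 genes a barcode (45 and 60 members) neither passed, at log2 ratios of 1.44 and 0.13. Bcl2a1a, a survival gene with near-identical copies, had 68 UMIs against 21, and its copy Bcl2a1b had 49 against 34. Bcl2a1a had 11.7 CPM against 0.502 CPM in the other barcodes, 20.3-fold higher (7.19 to 120). Mcpt1, a mast cell protease, had 51 UMIs against 0, at least 17.1-fold higher, but 90.2% of them came from 1 barcode.

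**Figure D5:**
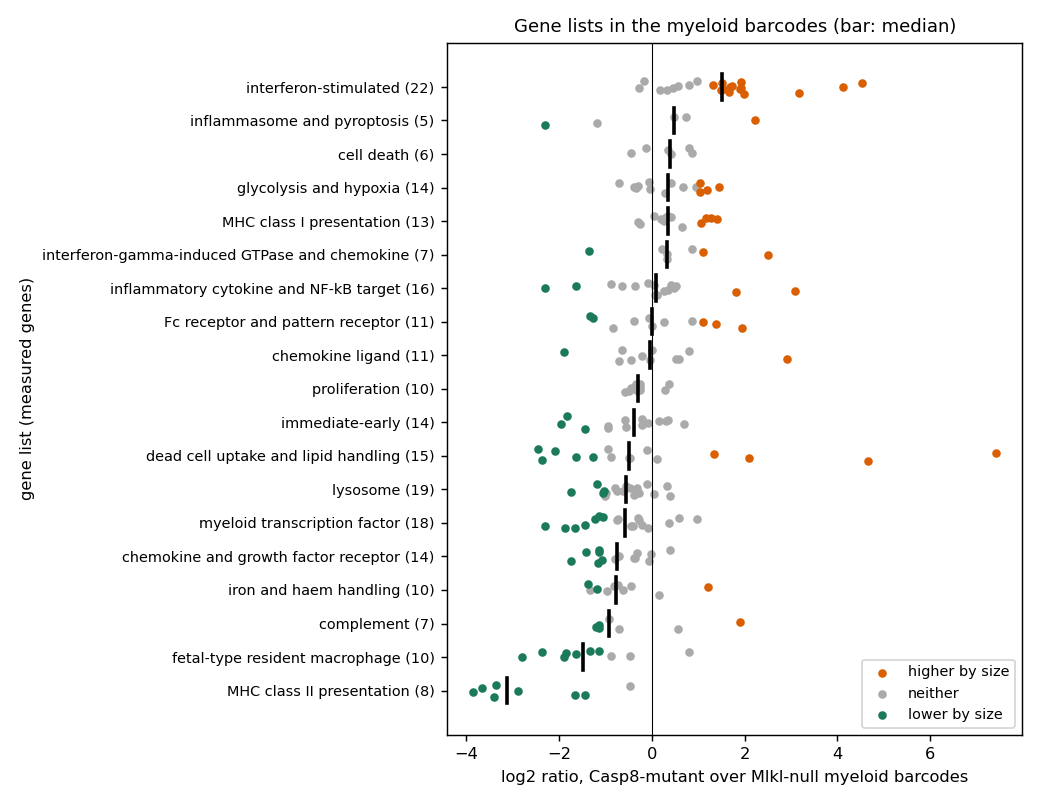
Log2 ratio of Casp8-mutant over Mlkl-null members for each measured gene of 19 lists, coloured by the size rule, with the list median as a bar. The list medians run from -3.12 for MHC class II to 1.52 for interferon-stimulated genes, and 7 of 8 and 14 of 22 genes of these lists passed.

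The plot of gene lists places the other functions between these ends. The counts below stand beside 11.3% of all measured genes called higher, 9.28% called lower and 20.5% called either way. Of 19 lysosomal genes 4 were lower, and the median log2 ratio was -0.55 in the members and -0.60 in the other barcodes. Psap, whose product activates sphingolipid hydrolysis, had 104 UMIs (500.2 CPM) against 351 (1674 CPM), 3.34-fold lower (2.68 to 4.21). Of 7 complement genes, 3 of them membership genes, C1qb, C5ar1 and C3ar1 were lower and Cfb of the alternative pathway was higher, with 42 UMIs in Casp8-mutant against 11 in Mlkl-null members (3.73-fold, 1.95 to 8.29). Of 5 inflammasome genes Naip2, a sensor of bacterial protein, was higher, with 25 UMIs against 5 (4.68-fold, 1.90 to 16.9), and Nlrp3 was lower. Of 10 iron and haem genes the phagosomal metal transporter Slc11a1 was higher, with 56 against 24 UMIs (2.33-fold, 1.43 to 3.97), and the iron carrier Trf lower, with 63 against 166 (2.60-fold, 1.94 to 3.55), as was Blvrb. Ferritin heavy chain Fth1 had 2283 UMIs against 2080, and Hmox1, which breaks down haem, 56 against 77. Among 11 Fc and pattern receptors the lectins Clec7a (50 UMIs against 19) and Clec4n (54 against 25) and the scavenger receptor Marco (32 against 8, in 6 and 1 barcodes) were higher, and Clec4a1 and Clec4a2 lower. Of 14 immediate-early genes Fosb, Jund and the chaperone Hspa1a were lower. Hspa1a had 25 UMIs in Casp8-mutant and 99 in Mlkl-null members. Of 14 glycolysis and hypoxia genes Pgk1, Pgam1, Slc2a1 and Vegfa were higher, all with lower interval bounds of 1.03 to 1.07. Of 10 proliferation genes 0 passed, and 25.5% of thinned Casp8-mutant and 24.6% of Mlkl-null members held 3 or more UMIs of that list. Of 6 measured cell death genes 0 passed. Casp8 itself had 16 UMIs in Casp8-mutant and 12 in Mlkl-null members, which does not check an allele that changes 1 residue. Mlkl had 1 and 0 UMIs. The nucleic acid sensor Zbp1 had 45 UMIs (216 CPM) against 26 (124 CPM), a ratio of 1.73 (1.05 to 2.95), and 151 CPM against 2.17 CPM in the other barcodes.

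The differences were also read within the C1q-positive barcodes, 92 Casp8-mutant and 60 Mlkl-null, to hold the macrophage-like cells alone. In them 10.6% of 2878 measured genes were higher and 9.14% lower (19.8% either way). Apoe had 4971 CPM in Casp8-mutant and 23720.3 CPM in Mlkl-null barcodes, 4.77-fold lower. H2-Ab1 was 13.9-fold lower, Cd74 7.88-fold lower and Ccl12 8.94-fold higher (5.65 to 15.6), so these genes differed as much as in all members. Splitting at 0.3% of UMIs from class II genes put 16 Casp8-mutant and 41 Mlkl-null barcodes above it and 76 and 19 below. Below it, Apoe had 4242 CPM in Casp8-mutant and 16649.7 CPM in Mlkl-null barcodes, 3.92-fold lower, and above it the level was 3.17-fold lower. Apoe was therefore lower also among barcodes on the same side of the class II split. Spp1 had 50 UMIs against 0 below the limit and 28 against 0 above it. Ccl24, which did not pass over all members, had 330 UMIs in Casp8-mutant and 25 in Mlkl-null barcodes below the limit, 6.62-fold higher (4.49 to 10.6), and 75 against 306 above it, a ratio of 1.16. Il1b was 3.03-fold higher and Isg15 8.07-fold higher below the limit, while Lyz2, the macrophage lysozyme, had 87 UMIs against 289 and was 6.48-fold lower. Above the limit Lyz2 had 27 UMIs (994 CPM) against 79 (620.2 CPM), a ratio of 1.62 (0.995 to 2.51). Over all members 29.8% of the Mlkl-null Lyz2 UMIs came from 1 barcode, and after thinning a Lyz2 UMI was found in 45.5% of Casp8-mutant and 32.3% of Mlkl-null members.

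Leiden clustering of the 178 barcodes gave 7 clusters, and 2 of them held at least 3 barcodes from both embryos. A cluster led by Ccl6, Fcna, F13a1, Lyz2 and Folr2 held 20 Casp8-mutant and 4 Mlkl-null barcodes. A cluster led by the class II genes, Apoe, Mmp9 and Adamdec1 held 3 Casp8-mutant and 41 Mlkl-null barcodes. Clusters led by Spp1, Lpl and Ccl12 (20 barcodes), by Arg1, Naip2 and Ccl24 (23) and by alpha-globin genes, Cd5l and Marco (39) held Casp8-mutant barcodes only. In the cluster led by globin genes few barcodes can carry its leading genes, since 4 barcodes held 604 of the 744 alpha-globin UMIs and 10 of the 113 Casp8-mutant members had a UMI of Marco or Cd5l. A cluster of 6 Casp8-mutant barcodes was led by the goblet cell genes Zg16, Fcgbp and Tff3. A cluster of 2 Casp8-mutant and 20 Mlkl-null barcodes was led by Gzma, Cd7 and Pf4, which mixes lymphoid with macrophage genes. With 1 library an embryo, clusters of mostly 1 library cannot be told apart from that library's own effect, and none was given a cell type name.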

How the data were processed

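The deposited files hold raw UMI counts per gene and barcode for 2 libraries made with Chromium 3′ v2 chemistry, per the labels' protocols. Cell Ranger 3.0.2, Seurat 3.0 and mm10 are named in the submitters' processing notes. How the deposited barcodes were filtered is not given in the sources at hand. Of 52636 gene IDs, 52403 had a symbol. Members and gene lists were chosen with earlier results of these data known.

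UMI counts were summed over the members of each library and expressed per 1000000 UMIs (CPM). The ratio, with 0.5 UMI added to each sum, has a 95% conditional exact interval. Genes needed 20 UMIs over both libraries. A gene at 0 in a library was bounded against a floor of 3 UMIs. Shares have Clopper-Pearson intervals. To compare shares, barcodes were thinned to 1000 UMIs (seed 1), which left out 3 Casp8-mutant members and 14 other Casp8-mutant barcodes. No doublets were removed. The 12 genes most raised and the 12 most lowered had at least 30 UMIs and 100 CPM, and 1.5 times the other barcodes' level, and were ranked by the interval bound nearest 1, leaving out mitochondrial, ribosomal, haemoglobin, sex-linked, predicted and membership genes. Others were named from the lists (most UMIs or largest change) or, for the remainder, after their values were seen. Clustering used 1000 variable genes, 15 components, 10 neighbours and resolution 1. The interval was tested on simulated data. Promoters came from RefSeq on GRCm38.p6, where 16 of the 24 ranked genes matched. Python 3.11.15, numpy 2.4.6, scipy 1.17.1, pandas 2.3.3 and scanpy 1.11.5 were used.

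Alternatives were the membership limits, thinning, the UMI minimum, C1q-positive barcodes alone, members without lymphoid or mast markers, and a subtraction of free RNA scaled to the epithelial level, which was chosen after seeing the data.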

Additional observations from a re-analysis of the deposited data

How the results depend on the processing

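No paired analysis was possible because each genotype has 1 embryo, and no replicate could be left out. Over 14 settings, the 24 ranked genes gave 331 comparisons, of which 318 kept direction and side of the size rule, 13 kept direction but no longer passed and 0 reversed. In 5 further cases Mcpt1 or Cd7 had at most 3 UMIs in either library and gave no value, among them the C1q-positive barcodes and the members without lymphoid or mast cell UMIs. The 24 genes were ranked on the same counts that the settings reuse, so their agreement is not an independent check. The ratio of myeloid shares was 1.97 with at least 1000 genes a barcode. Genes higher numbered 173 after thinning, 155 with a minimum of 50 UMIs and 580 with no minimum. Genes lower numbered 119, 112 and 546 under these settings, and 623 with free RNA subtracted. Fewer or more genes were measured under the first 3 (1413, 1323 and 16632). Subtracting free RNA shifted the median log2 ratio of all genes to -0.20 and that of the interferon-stimulated list to 0.94, which left the list under the 2-fold size, while the MHC class II list stayed at -3.18. Of 266 list medians 246 kept direction and side, 3 newly passed 2-fold, 1 no longer did and 16, in 9 lists with reported medians within 0.5 of 0, changed sign. Dead cell uptake and lipid handling changed to 0.70 after thinning (6 genes measured), inflammasome genes to -0.53 with at least 1000 genes and -0.47 with no minimum, and the interferon gamma list to -0.23 with free RNA subtracted. The subtraction assumes that all epithelial RNA in members is free RNA. Genes under 20 UMIs, the defining dendritic markers among them, did not count as measured. Whether depth or absence of the transcripts lay behind those low counts was not tested, nor was the cause of the shifts between settings.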

Other observations

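Among the Casp8-mutant members, 4 of 113 drew at least 1% of their UMIs from alpha-globin genes, at 9.07, 5.21, 7.19 and 1.29%, and the next highest barcode had 0.288%. Of 65 Mlkl-null members 0 did, and the highest had 0.107%. These 4 barcodes held 604 of the 744 alpha-globin UMIs of the Casp8-mutant members. Alpha- to beta-globin UMIs stood at 0.912 in them, at 0.0670 in the other 109 Casp8-mutant members and at 0.194 in the other Casp8-mutant barcodes. The 4 were chosen for alpha-globin, which raises this ratio. The scavenger receptor Marco or the macrophage protein Cd5l had a UMI in 3 of the 4, in 7 of the other 109 and in 6 of 762 other Casp8-mutant barcodes, against 1 of 65 Mlkl-null members and 0 of 1374 other Mlkl-null barcodes. C1q UMIs in the 4 numbered 12, 16, 15 and 35. The pattern was noticed in the data, and the source of this globin RNA was not tested.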
